A study of Rattus norvegicus with 18 samples.

Results

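Genetic studies of Alzheimer's disease have attached the risk of the disorder to a set of genes, many of which act in the glial cells of the brain, and 40 such genes, taken by their rat symbols, were followed here in cultured astrocytes and microglia exposed to amyloid-β (Aβ) fibrils. The members were taken by symbol under a rule that uses no measured value, though earlier results of these data were known when they were chosen. Of the 40, 35 were in the count tables, among 17930 genes listed for either cell type. Cd33 and Treml2, which code for immune receptors, Scimp, an adaptor of immune receptors, Zcwpw1, a histone reader, and Jazf1, a zinc finger protein, were not among the symbols and were not analysed here. The remaining members fall into groups by known role, namely endocytosis and sorting, lipid transport and complement, immune receptor signalling, adhesion and cytoskeleton, the lysosome and intramembrane proteolysis, control of NF-kB, RNA binding, and a mixed group.

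Primary astrocytes and primary microglia of wild-type neonatal rat brain were cultured separately and were left untreated, given Aβ42 fibrils or given Aβ40 fibrils for 24 h, with 3 libraries in each of the 6 groups and 18 libraries in all. Both came from mixed glia of the cortex of Sprague-Dawley pups, in which microglia were shaken off and the attached astrocytes were kept after a longer shake against oligodendrocyte precursors, and all groups, controls included, were held in serum-free medium. The fibrils were grown from synthetic peptide on fibril seeds, and the RNA was sequenced from poly(A)-selected, stranded libraries. The labels do not say that the 3 libraries of a group came from separate cultures, so that p-values measure only the spread between these libraries, which may be technical. The comparisons ask how each fibril changes each cell type, whether the fibrils differ, and whether the cell types respond differently.

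Microglia are the resident macrophages of the brain. Their surface receptors signal through Syk, phospholipase C gamma and the lipid kinase PI3K, and Inpp5d, Plcg2 and Blnk belong to that machinery. Abi3, grouped with them here, acts on actin. Astrocytes secrete lipoproteins, and clusterin, coded by Clu, is one of their abundant secreted chaperones. Sorl1, Bin1 and Picalm steer the amyloid precursor protein and other cargo through endosomes, while progranulin (Grn) and Tmem106b act in lysosomes. Tnip1 restrains NF-kB, the transcription factor of inflammatory signalling.

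The depth ranged from 3674043 to 19013919 counts on genes in the astrocyte libraries and from 2271834 to 22274367 in the microglia libraries. CPM, the share of a library's counts scaled by TMM over all 18 libraries (scaled CPM), are used for every level below, and each level is compared between libraries of the same gene, never between genes. A count of 3, taken as the detection floor of a library, corresponds to 0.147 to 1.52 scaled CPM, and it covers counting error only. Of the 35 members in the tables, 33 passed the low-count filter in astrocytes, 34 in microglia and 34 in the fit of both cell types. Epha1, an ephrin receptor, passed in neither and lay between 0 and 1.24 scaled CPM in all 18 libraries, while Cass4 did not pass in astrocytes. Astrocyte markers summed to 8408 to 10234 scaled CPM in the control astrocyte libraries and to 273 to 308 in the control microglia libraries, and the 10 microglial markers summed to 304 to 364 and to 6609 to 7401, respectively, so that the labels match their markers. The oligodendrocyte lineage markers summed to 1619 to 2420 scaled CPM in the control astrocyte libraries and to 2169.8 to 2421 in the control microglia libraries. Endothelial markers went from 179 to 194 in the control microglia libraries to 46.0 to 67.7 with Aβ42 and 92.0 to 117 with Aβ40 fibrils, with Cldn5 at or under the floor in every group, and fibroblast and mural markers from 51.3 to 65.6 to 147 to 174 and 133 to 136. All 4 T and B cell markers in the tables were at or under the floor throughout. Microglia Aβ42 replicate 1 stood apart from the other libraries of its group (median absolute log2 distance 0.38, against 0.21 for both others), as did astrocyte control replicate 2 (0.47, against 0.28 and 0.30), and member calls that changed without either are given both ways.

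The promoters of the members with the largest changes are shown first, to give the sequence context of the genes described in most detail. The 2 largest called increases and the 2 largest called decreases in each cell type belonged to 6 members, Tnip1, Clu, Sppl2a, Blnk, Abi3 and Inpp5d, of which 4 have an entry in the RefSeq promoter table of rat build GRCr8. Each sequence holds 250 bases before the annotated start of the gene and 50 after it, read 5′ to 3′ along the gene's own strand. Capitals mark GAGGAAG, the core recognised by PU.1, the master transcription factor of microglia. GGNNTTTCC (a form of the kappaB site of NF-kB) and TGANTCA (AP-1) were searched as well, all on both strands. Neither overlaps the PU.1 core in these windows.
Tnip1 (chr10:39584912-39585211, minus strand): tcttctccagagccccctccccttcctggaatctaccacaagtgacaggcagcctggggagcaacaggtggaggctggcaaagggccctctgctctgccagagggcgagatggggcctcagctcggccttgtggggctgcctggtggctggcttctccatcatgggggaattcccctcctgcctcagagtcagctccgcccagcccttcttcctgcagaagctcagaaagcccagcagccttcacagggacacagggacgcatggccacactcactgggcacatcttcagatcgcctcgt
Blnk (chr1:249770484-249770783, minus strand): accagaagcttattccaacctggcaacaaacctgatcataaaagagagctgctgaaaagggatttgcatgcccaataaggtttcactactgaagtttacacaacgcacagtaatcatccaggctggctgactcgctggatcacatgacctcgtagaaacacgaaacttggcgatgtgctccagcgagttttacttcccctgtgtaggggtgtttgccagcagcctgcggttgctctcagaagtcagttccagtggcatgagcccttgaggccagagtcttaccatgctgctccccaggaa
Sppl2a (chr3:134646703-134647002, minus strand): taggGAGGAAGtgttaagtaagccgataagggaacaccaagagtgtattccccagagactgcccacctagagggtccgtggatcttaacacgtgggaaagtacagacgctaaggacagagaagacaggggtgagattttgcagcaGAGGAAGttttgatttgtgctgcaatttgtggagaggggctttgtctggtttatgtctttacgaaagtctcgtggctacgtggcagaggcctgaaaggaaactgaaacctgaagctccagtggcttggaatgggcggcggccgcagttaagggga
Inpp5d (chr9:95735283-95735582, plus strand): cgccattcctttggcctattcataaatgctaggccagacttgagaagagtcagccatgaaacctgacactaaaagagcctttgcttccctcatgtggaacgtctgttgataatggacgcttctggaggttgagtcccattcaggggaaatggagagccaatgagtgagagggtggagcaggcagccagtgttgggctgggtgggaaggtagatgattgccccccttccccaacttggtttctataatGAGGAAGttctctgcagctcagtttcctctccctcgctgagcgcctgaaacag
The PU.1 core begins 3 bases before the annotated start of Inpp5d and runs across it. In Sppl2a it begins 246 and 105 bases before the start. None of the 3 searched strings of letters is in the windows of Tnip1 or Blnk. Among all 33469 promoters of the table, 12.4% hold the PU.1 core, 6.05% the kappaB letters and 7.33% the AP-1 letters. Of the 29 members of the tables with a promoter entry, 5 hold the PU.1 core (Ace, Inpp5d, Sppl2a, Tspan14 and Wwox), 2 the kappaB letters (Cass4 and Echdc3) and 1 the AP-1 letters (Idua). A match describes letters only, and the absence of a match concerns only this window and these letters. Other forms of each site were not searched. The count files were made on build rn5, so that these coordinates belong to the promoter table and not to the counts.

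In untreated cultures most of the risk genes were higher in microglia than in astrocytes. With the quasi-likelihood test of edgeR and p-values adjusted by Benjamini-Hochberg over the 11581 genes tested in both cell types, 24 of 34 members were higher in control microglia and 4 lower, where 34.2% and 34.5% of all genes were higher and lower. The median log2 difference of the members was 1.17, against -0.00 for all genes. A difference of 8-fold or more was seen in 5 members with higher levels in microglia and 1 with lower levels, where the shares of all genes were 6.29% and 8.04%. In these bulk cultures fewer cells of a type and less RNA per cell cannot be told apart.

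**Figure D1:**
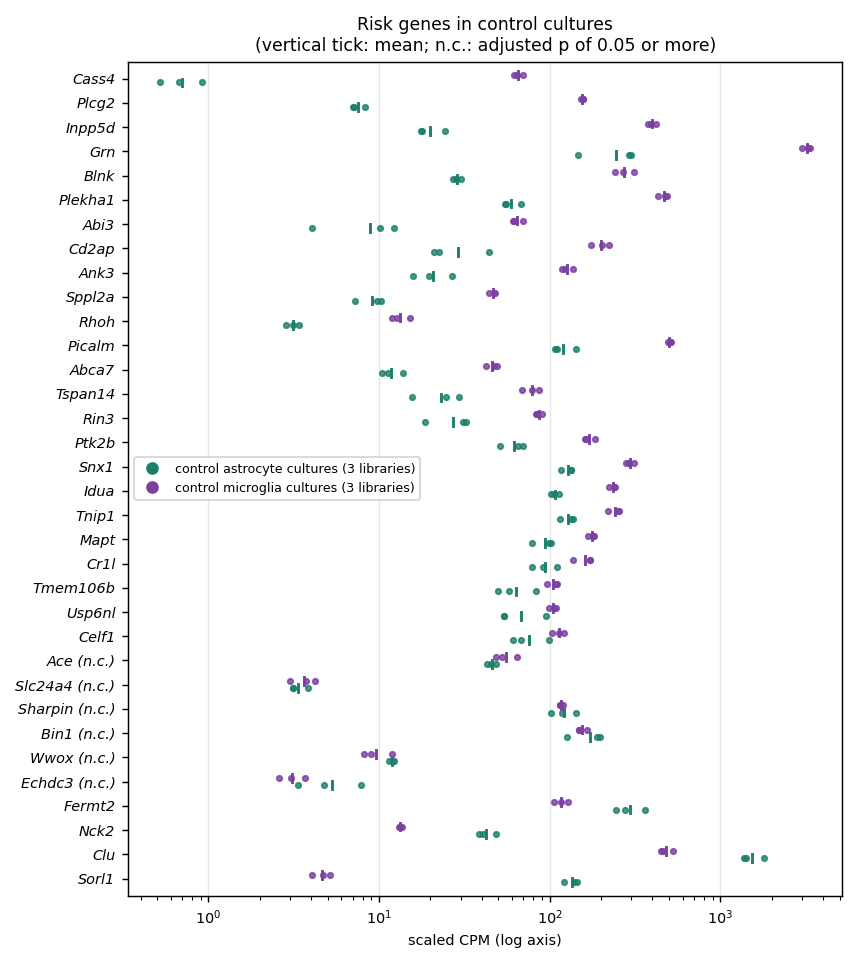
Scaled CPM (log axis) of the 34 tested risk genes in the 3 control astrocyte libraries (green) and the 3 control microglia libraries (purple), ordered by the fitted difference, with a tick at each mean. Cass4, Plcg2, Inpp5d, Grn and Blnk lie at the microglial end and Sorl1 at the astrocytic end, and the 6 genes marked n.c. had an adjusted p of 0.05 or more.

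Cass4, a scaffold of the Cas family in adhesion signalling, was at 62.0, 64.1 and 69.8 scaled CPM in the control microglia libraries and at 0.523, 0.674 and 0.911 in the control astrocyte libraries, a log2 difference of 6.34 ± 0.22 (adjusted p = 1.58e-14), where ± gives the standard error here and below. Its astrocyte values rest on 2 to 14 counts in a library, at or under the floor in replicates 1 and 2 (0.785 and 0.674 scaled CPM). Cass4 entered this fit without passing the filter in astrocytes, so the size of its difference is uncertain. Plcg2, the phospholipase C gamma of myeloid and B cells, was at 156, 157 and 153 against 7.07, 8.31 and 7.09, a difference of 4.38 ± 0.16 (adjusted p = 2.43e-14). Inpp5d, the lipid phosphatase SHIP1 that restrains PI3K signalling, was at 389.9, 378 and 421 against 17.8, 17.5 and 24.2, a difference of 4.29 ± 0.18 (adjusted p = 1.38e-13). None of these libraries overlapped between the cell types. Grn, the precursor of progranulin, was at 3019, 3249 and 3349 in microglia and 299, 147 and 291 in astrocytes (log2 difference 3.70 ± 0.20, adjusted p = 4.61e-12), and Blnk, an adaptor that joins Syk to phospholipase C gamma, was at 269, 240.0 and 312 and 27.2, 30.1 and 28.4 (3.26 ± 0.16, adjusted p = 1.77e-12). Sorl1, a sorting receptor of the amyloid precursor protein, had the opposite distribution, at 122, 145 and 138 scaled CPM in control astrocytes and 4.06, 5.18 and 4.72 in control microglia (log2 difference -4.87 ± 0.17, adjusted p = 1.01e-14).

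Clu (-1.67 ± 0.11), the adaptor Nck2 (-1.67 ± 0.13) and the integrin activator Fermt2 (-1.34 ± 0.14) were also lower in control microglia. Between these ends, Plekha1, Abi3, Cd2ap, Ank3, Sppl2a, Rhoh and Picalm were higher in microglia by log2 differences of 2.07 to 2.98, and Abca7, Tspan14, Rin3, Ptk2b, Snx1, Idua, Tnip1, Mapt, Cr1l, Tmem106b, Usp6nl and Celf1 by 0.57 to 1.93. Ace, Slc24a4, Sharpin, Bin1, Wwox and Echdc3 did not pass the test, and the widest 95% intervals were -1.38 to -0.02 for Echdc3 and -0.45 to 0.78 for Slc24a4. Without astrocyte control replicate 2, Echdc3 was called lower in microglia, at -0.84 ± 0.33 (adjusted p = 0.0252). The calls of Usp6nl and Celf1 were lost without astrocyte control replicate 1 (adjusted p = 0.0672 and 0.0711). Scaling by library totals alone moved the median of all genes by -0.28 on the log2 scale and left 22 members higher and 8 lower, with Usp6nl and Celf1 again not called.

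The astrocyte cultures held microglial transcripts at a low level. The 10 microglial markers, summed, stood in control astrocyte libraries at 4.97% of their level in control microglia, and Inpp5d stood at 5.003%, Plcg2 at 4.83%, Blnk at 10.4%, Abi3 at 13.7%, Rhoh at 23.7% and Cass4 at 1.08% of theirs. With fibrils the marker sum in astrocyte cultures went from 304 to 364 scaled CPM to 116 to 124 (Aβ42) and 107 to 123 (Aβ40), and 9 of the 10 markers were lower with each fibril, with Cx3cr1 at or under the floor with both and P2ry12 with Aβ42. In microglia cultures the sum went from 6609 to 7401 to 1931 to 2253 and 2235 to 2404, where 7 markers were lower and 1 higher with Aβ42 fibrils and 9 lower and 1 higher with Aβ40. The part of these markers in the astrocyte values of Inpp5d, Plcg2, Blnk, Abi3, Rhoh and Cass4 was not tested. Other marker sums moved in the astrocyte cultures too. Astrocyte markers went from 8408 to 10234 scaled CPM to 5404 to 5769 (Aβ42) and 5977 to 6418 (Aβ40). Oligodendrocyte lineage markers went from 1619 to 2420 to 1224 to 1287 and 1267 to 1306, and fibroblast and mural markers from 119 to 157 to 151 to 188 and 171 to 201. Their part in the astrocyte values of Sorl1, Slc24a4 and Ace was not tested.

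**Figure D2:**
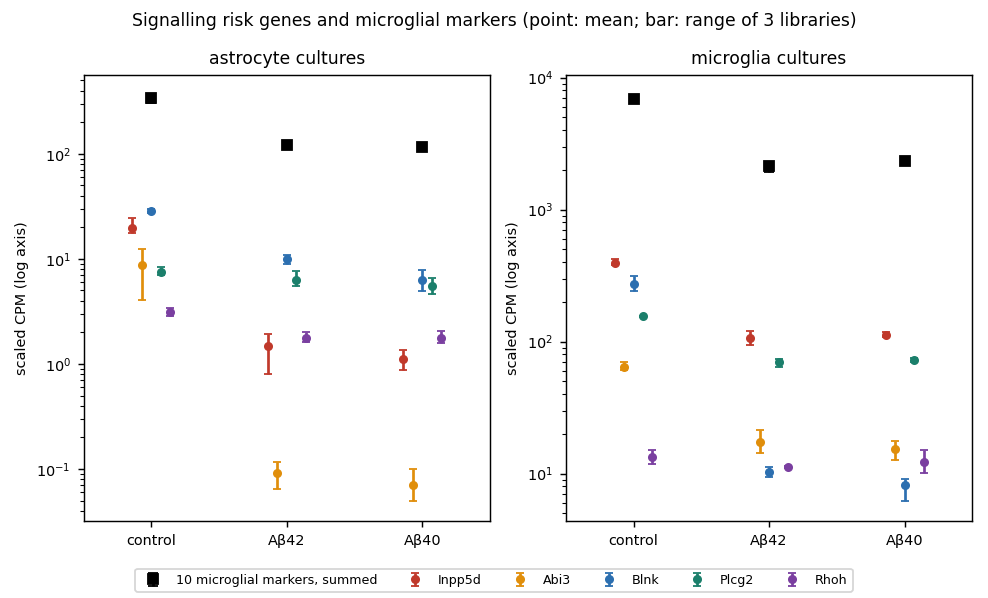
Scaled CPM (log axis) of 5 signalling risk genes and of the summed 10 microglial markers in astrocyte cultures (left) and microglia cultures (right), with points at the mean and bars over the range of 3 libraries. In astrocyte cultures the marker sum, Inpp5d, Abi3 and Blnk were lower with both fibrils, while Plcg2 did not pass the test.

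With Aβ42 fibrils 26 of the risk genes were called in microglia and 12 in astrocytes, and with Aβ40 fibrils 21 and 12. In microglia, 8 of 34 members were higher and 18 lower with Aβ42 fibrils, where 27.1% of the 10837 tested genes were higher and 26.6% lower, and with Aβ40 fibrils 6 were higher and 15 lower, where the shares were 19.6% and 21.4%. The median log2 fold change of the members was -0.60 with Aβ42 and -0.30 with Aβ40 fibrils, against 0.01 for all genes in both. At 2-fold or more, 3 members were higher and 10 lower with Aβ42 (11.4% and 9.93% of all genes) and 3 higher and 8 lower with Aβ40 (8.95% and 8.63%). Without microglia Aβ42 replicate 1, 10 were higher and 20 lower with Aβ42 fibrils, where 34.6% and 35.7% of all genes were.

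In astrocytes, 4 of 33 members were higher and 8 lower with Aβ42 fibrils, where 16.5% of the 11690 tested genes were higher and 20.4% lower, and 5 were higher and 7 lower with Aβ40 fibrils, where the shares were 14.9% and 18.4%. The medians were -0.03 and 0.01, against -0.00 and 0.00 for all genes. At 2-fold or more, 2 members were higher and 5 lower with either fibril, where 8% and 11.8% of all genes were with Aβ42 and 7.37% and 10.4% with Aβ40. Without astrocyte control replicate 2, 14 members were called with each fibril in place of 12, 6 higher and 8 lower with Aβ42, where 22.1% and 24.8% of all genes were, and 7 higher and 7 lower with Aβ40, where 19.6% and 22.2% were. The comparisons of a cell type share its control libraries, so their values are set side by side and are not independent.

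The response itself was compared between the cell types by the interaction term of a fit of all 18 libraries. With Aβ42 fibrils, 7 of 34 members responded higher in microglia than in astrocytes and 17 lower, where 19.3% and 17.9% of 11581 genes did, and with Aβ40 fibrils 5 responded higher and 12 lower, where 16% and 16.5% did. The median difference of the response was -0.42 and -0.25 over the members, against 0.04 and 0.01 over all genes. The difference of each member is given with its group below as the response in microglia minus that in astrocytes.

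**Figure D3:**
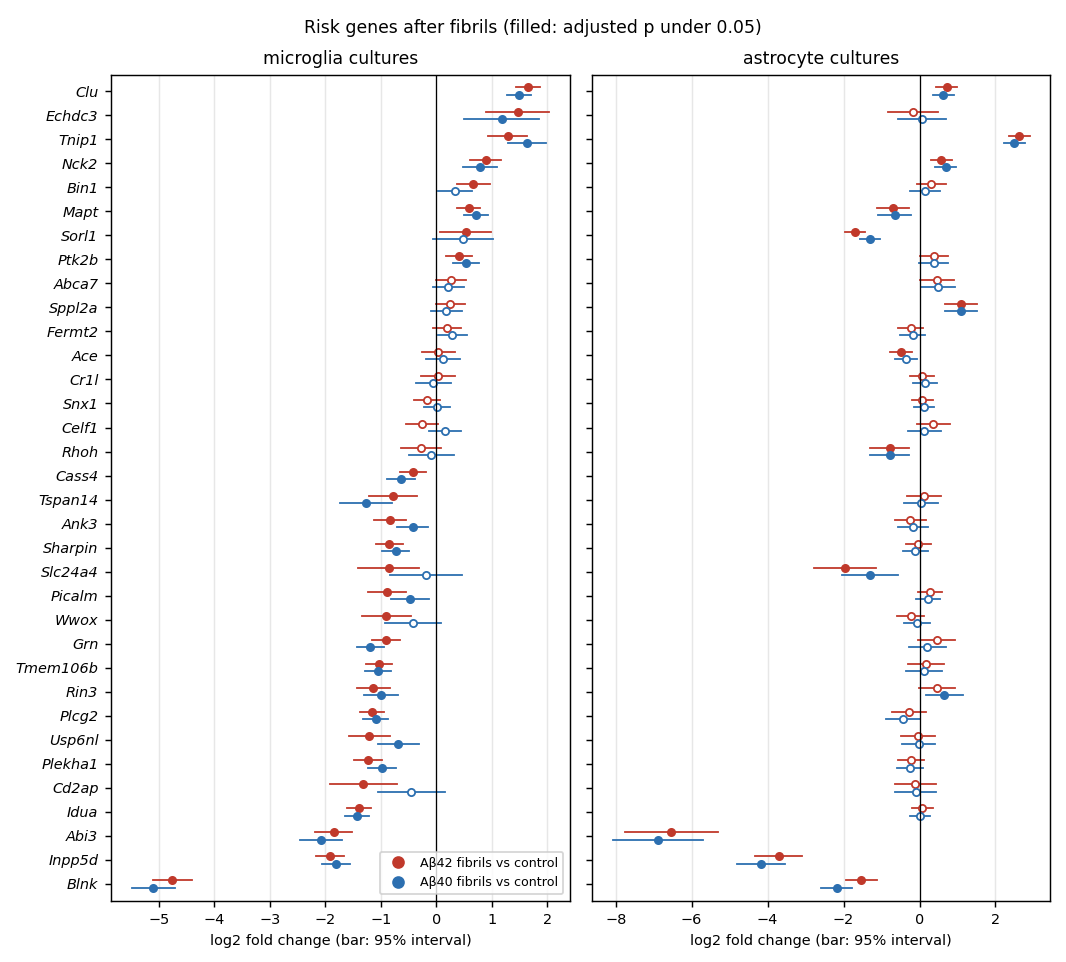
Log2 fold change of each tested risk gene against control in microglia cultures (left) and astrocyte cultures (right) with Aβ42 fibrils (red) and Aβ40 fibrils (blue), with 95% intervals, ordered by the microglial Aβ42 value, and with filled points for an adjusted p under 0.05. Clu, Tnip1 and Nck2 lie above 0 and Abi3, Inpp5d and Blnk below 0 in both panels, whereas Sorl1 and Mapt lie below 0 in astrocytes and above 0 in microglia. The horizontal ranges differ between the panels, and the astrocyte values of Abi3 rest on 1 count in each treated library.

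Among the immune receptor signalling genes, Inpp5d, Blnk and Abi3 fell with both fibrils in both cultures, and Plcg2 fell in microglia. Of the 6 tested genes of this group, 1 rose and 4 fell in each of the 4 comparisons with control. Among all genes 27.1% rose and 26.6% fell in microglia with Aβ42, and 19.6% and 21.4% with Aβ40. In astrocytes the shares were 16.5% and 20.4% with Aβ42, and 14.9% and 18.4% with Aβ40. The median log2 fold change of the group with Aβ42 was -1.51 in microglia and -1.16 in astrocyte cultures. The summed microglial markers were lower in the same fibril libraries, as given above. In microglia cultures Inpp5d was at 389.9, 378 and 421 scaled CPM in the control libraries, 103, 94.8 and 121 with Aβ42 fibrils and 112, 119 and 108 with Aβ40 fibrils. Log2 fold changes there were -1.91 ± 0.11 with Aβ42 fibrils (adjusted p = 4.35e-08) and -1.81 ± 0.11 with Aβ40 fibrils (adjusted p = 1.04e-07). The astrocyte cultures gave 17.8, 17.5 and 24.2 scaled CPM in the control libraries, 1.93, 1.72 and 0.809 with Aβ42 fibrils and 1.10, 1.35 and 0.876 with Aβ40 fibrils. All 6 fibril libraries were thus below the controls in each cell type, and in astrocytes the log2 fold changes were -3.71 ± 0.28 with Aβ42 fibrils (adjusted p = 2.07e-06) and -4.17 ± 0.29 with Aβ40 fibrils (adjusted p = 1.11e-06). The response was less negative in microglia, with differences of 1.79 ± 0.27 (adjusted p = 4.6e-05) and 2.35 ± 0.28 (adjusted p = 2.56e-06).

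Blnk had the largest change of any member in microglia. Its microglia libraries were at 269, 240.0 and 312 scaled CPM in the control libraries, 10.04, 9.49 and 11.3 with Aβ42 fibrils and 9.14, 6.25 and 9.10 with Aβ40 fibrils, so that the treated libraries kept a small part of the control level, with log2 fold changes of -4.76 ± 0.16 with Aβ42 fibrils (adjusted p = 7e-10) and -5.09 ± 0.18 with Aβ40 fibrils (adjusted p = 1.22e-09). In astrocyte cultures it was at 27.2, 30.1 and 28.4 scaled CPM in the control libraries, 10.1, 8.9997 and 10.98 with Aβ42 fibrils and 4.98, 7.90 and 5.88 with Aβ40 fibrils, with log2 fold changes of -1.53 ± 0.18 with Aβ42 fibrils (adjusted p = 6.5e-05) and -2.18 ± 0.19 with Aβ40 fibrils (adjusted p = 5.61e-06). The treated levels of the 2 cultures lay close together although the controls did not, and the response was more negative in microglia, with differences of -3.22 ± 0.24 (adjusted p = 5.17e-09) and -2.93 ± 0.26 (adjusted p = 6.66e-08).

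Abi3, which associates with the WAVE complex that builds branched actin, was at 62.0, 61.1 and 69.6 scaled CPM in the control libraries, 14.4, 16.7 and 21.4 with Aβ42 fibrils and 12.6, 15.999 and 17.7 with Aβ40 fibrils in microglia cultures. Its fold changes there were -1.85 ± 0.15 with Aβ42 fibrils (adjusted p = 9.02e-07) and -2.08 ± 0.17 with Aβ40 fibrils (adjusted p = 1.06e-06). In each of the 6 fibril-treated astrocyte libraries it had 1 count, while the 3 control libraries held 221 counts together, at 12.3, 4.04 and 10.2 scaled CPM. From the counts, Abi3 was 108-fold lower with Aβ42 fibrils (exact 95% interval 36.4 to 527) and 143-fold lower with Aβ40 fibrils (48.4 to 701), intervals that cover counting error only. The test called both decreases (adjusted p = 4.61e-06 and 3.01e-06), and the response was called less negative in microglia (adjusted p = 7.07e-06 and 6.68e-06). The fitted differences of 4.65 and 4.76 depend on the prior count. Their errors of 0.61 come from the fitted value and the test statistic and may understate counting error at 1 count per library.

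Plcg2 fell in microglia cultures, which were at 156, 157 and 153 scaled CPM in the control libraries, 74.2, 64.2 and 73.1 with Aβ42 fibrils and 73.4, 69.5 and 75.4 with Aβ40 fibrils. The log2 fold changes were -1.16 ± 0.10 with Aβ42 fibrils (adjusted p = 1.42e-06) and -1.09 ± 0.10 with Aβ40 fibrils (adjusted p = 3.76e-06). In astrocyte cultures, at 7.07, 8.31 and 7.09 scaled CPM in the control libraries, 5.67, 5.55 and 7.63 with Aβ42 fibrils and 4.59, 5.30 and 6.57 with Aβ40 fibrils, the Aβ42 libraries overlapped the controls and the Aβ40 libraries lay below them, and the log2 fold changes of -0.28 ± 0.21 (adjusted p = 0.321) and -0.44 ± 0.20 (adjusted p = 0.12) did not pass the test. The response was more negative in microglia, with differences of -0.89 ± 0.21 (adjusted p = 0.00282) and -0.67 ± 0.21 (adjusted p = 0.0209), the latter lost without astrocyte control replicate 3 (adjusted p = 0.0545) or Aβ40 replicate 3 (adjusted p = 0.105).

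Nck2, which links phosphorylated receptors to actin, was the member of this group that rose. Its microglia values were 13.2, 13.6 and 13.2 scaled CPM in the control libraries, 25.3, 25.8 and 24.1 with Aβ42 fibrils and 22.9, 24.7 and 20.7 with Aβ40 fibrils, with log2 fold changes of 0.89 ± 0.13 with Aβ42 fibrils (adjusted p = 0.000105) and 0.79 ± 0.14 with Aβ40 fibrils (adjusted p = 0.000627). Its astrocyte values were 48.7, 38.4 and 40.6 scaled CPM in the control libraries, 62.0, 68.1 and 62.7 with Aβ42 fibrils and 71.3, 66.5 and 69.9 with Aβ40 fibrils, with log2 fold changes of 0.58 ± 0.13 with Aβ42 fibrils (adjusted p = 0.00442) and 0.69 ± 0.13 with Aβ40 fibrils (adjusted p = 0.00161). Treated libraries were above controls in both cultures, and the difference between the responses did not pass the test, with 95% intervals of -0.05 to 0.67 and -0.29 to 0.45. Its paralogue Nck1 fell in microglia at log2 fold changes of -1.40 (adjusted p = 2.91e-06) and -1.40 (adjusted p = 5.09e-06) and had log2 fold changes of 0.14 (adjusted p = 0.671) and 0.03 (adjusted p = 0.944) in astrocytes. Rhoh, a small GTP-binding protein of blood cells, fell in astrocyte cultures at log2 fold changes of -0.78 ± 0.23 (adjusted p = 0.0221) and -0.79 ± 0.23 (adjusted p = 0.0201) from a range of 2.86 to 3.40 scaled CPM to 1.62 to 2.00 and 1.56 to 2.05. The Aβ42 call was lost without Aβ42 replicate 2 or 3 (adjusted p = 0.0739 and 0.0675) and the Aβ40 call without Aβ40 replicate 1 or 3 (adjusted p = 0.0591 and 0.0875), and DESeq2 made neither (adjusted p = 0.0607 and 0.0519). In microglia its log2 fold changes of -0.27 ± 0.17 and -0.09 ± 0.18 did not pass.

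**Figure D4:**
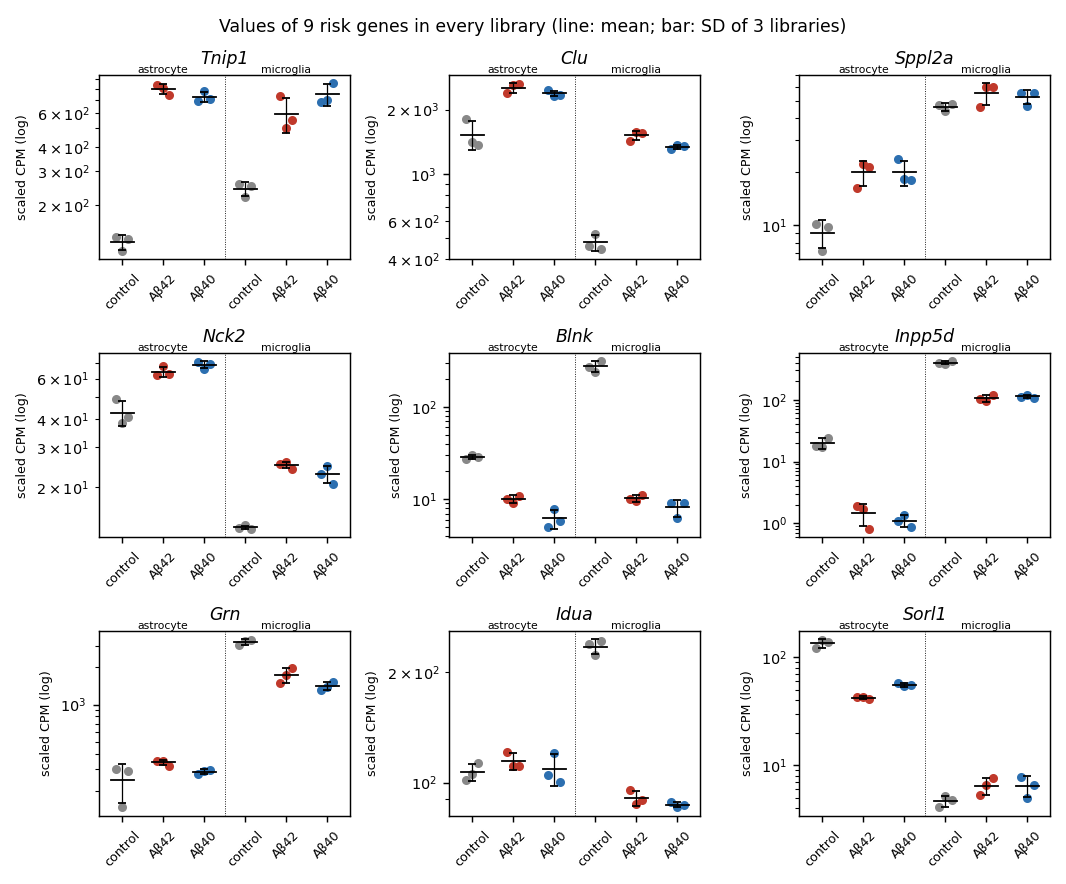
Scaled CPM (log axes, a separate range for each gene) of 9 risk genes in all 18 libraries, grouped as control, Aβ42 and Aβ40 in astrocyte cultures (left of the dotted line) and microglia cultures (right), with the mean and the SD of 3 libraries. Tnip1, Clu and Nck2 rose in both cultures, Sppl2a in astrocytes, Blnk and Inpp5d fell in both, Grn and Idua fell in microglia, and Sorl1 fell in astrocytes.

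Of the 2 regulators of NF-kB, Tnip1 rose with both fibrils in both cultures and Sharpin fell in microglia. Tnip1 codes for ABIN1, a ubiquitin-binding partner of A20. In astrocyte cultures Tnip1 was at 137, 115 and 132 scaled CPM in the control libraries, 841, 812 and 746 with Aβ42 fibrils and 695, 780.5 and 708 with Aβ40 fibrils, with log2 fold changes of 2.62 ± 0.12 with Aβ42 fibrils (adjusted p = 6.44e-08) and 2.49 ± 0.12 with Aβ40 fibrils (adjusted p = 1.1e-07). In microglia cultures it was at 255, 220.2 and 251 scaled CPM in the control libraries, 735, 504 and 552 with Aβ42 fibrils and 688, 706 and 862 with Aβ40 fibrils, with log2 fold changes of 1.29 ± 0.16 with Aβ42 fibrils (adjusted p = 2.93e-05) and 1.63 ± 0.16 with Aβ40 fibrils (adjusted p = 4.98e-06). No treated library overlapped the controls, and the increase was smaller in microglia, with log2 differences of -1.34 ± 0.19 (adjusted p = 2.15e-05) and -0.87 ± 0.19 (adjusted p = 0.00163). Tnip2, its paralogue, rose with Aβ42 fibrils by 0.46 (adjusted p = 0.016) in astrocytes and 0.35 (adjusted p = 0.0139) in microglia.

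Sharpin, a subunit of the complex that builds linear ubiquitin chains, was at 119, 115 and 116 scaled CPM in the control libraries, 73.4, 61.9 and 63.5 with Aβ42 fibrils and 67.8, 77.0 and 65.2 with Aβ40 fibrils in microglia cultures. The log2 fold changes were -0.85 ± 0.11 with Aβ42 fibrils (adjusted p = 4.54e-05) and -0.73 ± 0.11 with Aβ40 fibrils (adjusted p = 0.000233), with all treated libraries below the controls. In astrocyte cultures it was at 142, 102 and 119 scaled CPM in the control libraries, 127, 127 and 107 with Aβ42 fibrils and 106, 123 and 111 with Aβ40 fibrils, where the groups overlapped and the log2 fold changes were -0.03 ± 0.15 and -0.11 ± 0.15 (adjusted p = 0.892 and 0.61). The response was more negative in microglia, with differences of -0.82 ± 0.18 (adjusted p = 0.00149) and -0.64 ± 0.18 (adjusted p = 0.0114). Of 12 tested partners in ubiquitin signalling to NF-kB, 9 were higher and 1 lower with Aβ42 fibrils in astrocytes and 4 higher and 4 lower in microglia, and with Aβ40 fibrils 8 were higher and 1 lower in astrocytes and 3 higher and 3 lower in microglia. Of all genes, 16.5% were higher and 20.4% lower with Aβ42 in astrocytes and 27.1% and 26.6% in microglia, and with Aβ40 14.9% and 18.4%, and 19.6% and 21.4%. The medians of the partners were 0.60, -0.04, 0.62 and 0.07, in that order. Birc3, a ubiquitin ligase and NF-kB target, was the highest, with 5.32 and 5.28 in astrocytes and 3.90 and 3.98 in microglia, and the lowest were Tab2 in astrocytes (-0.93 and -0.78) and Otulin in microglia (-1.15 and -1.46).

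Of the 4 members of the lysosome and intramembrane proteolysis, 3 fell in microglia with each fibril, and in astrocytes 1 rose. Among all genes 26.6% fell in microglia with Aβ42 and 21.4% with Aβ40, and 16.5% and 14.9% rose in astrocytes. Grn in microglia cultures was at 3019, 3249 and 3349 scaled CPM in the control libraries, 1506, 1724 and 1969 with Aβ42 fibrils and 1319, 1378 and 1529 with Aβ40 fibrils, with log2 fold changes of -0.90 ± 0.11 with Aβ42 fibrils (adjusted p = 3.15e-05) and -1.19 ± 0.11 with Aβ40 fibrils (adjusted p = 3.98e-06). Idua, the lysosomal enzyme that trims glycosaminoglycans, was at 238, 222 and 243 scaled CPM in the control libraries, 95.2, 87.2 and 89.5 with Aβ42 fibrils and 88.5, 85.7 and 87.0 with Aβ40 fibrils, with log2 fold changes of -1.39 ± 0.10 with Aβ42 fibrils (adjusted p = 2.01e-07) and -1.43 ± 0.10 with Aβ40 fibrils (adjusted p = 2.42e-07). Tmem106b, a lysosomal membrane protein, was at 108, 96.9 and 109.6 scaled CPM in the control libraries, 54.1, 51.4 and 51.2 with Aβ42 fibrils and 50.3, 53.5 and 47.5 with Aβ40 fibrils, with log2 fold changes of -1.03 ± 0.10 with Aβ42 fibrils (adjusted p = 4.99e-06) and -1.05 ± 0.11 with Aβ40 fibrils (adjusted p = 7.35e-06). In each of the 3 genes, every treated microglia library was below every control.

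In astrocyte cultures Grn was at 299, 147 and 291 scaled CPM in the control libraries, 350.2, 351 and 320.2 with Aβ42 fibrils and 272, 291 and 295 with Aβ40 fibrils, Idua at 102, 106 and 113 scaled CPM in the control libraries, 121, 111 and 111 with Aβ42 fibrils and 105, 121 and 100.3 with Aβ40 fibrils, and Tmem106b at 49.98, 82.9 and 57.8 scaled CPM in the control libraries, 58.4, 75.8 and 85.2 with Aβ42 fibrils and 85.5, 57.0 and 68.6 with Aβ40 fibrils. None passed the test there, with adjusted p between 0.144 (Grn, Aβ42) and 0.963 (Idua, Aβ40). The treated Grn libraries with Aβ42 lay above the controls, of which replicate 2 was the lowest. The response was more negative in microglia for Grn at differences of -1.36 ± 0.26 (adjusted p = 0.000374) and -1.41 ± 0.26 (adjusted p = 0.000313), for Idua at differences of -1.47 ± 0.15 (adjusted p = 2.27e-07) and -1.45 ± 0.15 (adjusted p = 3.65e-07), and for Tmem106b at differences of -1.21 ± 0.25 (adjusted p = 0.000884) and -1.20 ± 0.26 (adjusted p = 0.00131). Tmem106a, the paralogue of Tmem106b, rose in astrocytes by 3.17 (adjusted p = 9.69e-07) and 3.31 (adjusted p = 8.08e-07) and had log2 fold changes of 0.14 (adjusted p = 0.376) and 0.20 (adjusted p = 0.248) in microglia, while Tmem106c fell in astrocytes at log2 fold changes of -0.88 (adjusted p = 0.00455) and -0.78 (adjusted p = 0.00967).

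Sppl2a, an intramembrane protease of lysosomes and endosomes, departed from the other members of its group. Its astrocyte values were 10.2, 7.19 and 9.76 scaled CPM in the control libraries, 16.2, 22.2 and 21.3 with Aβ42 fibrils and 23.4, 18.1 and 17.9 with Aβ40 fibrils, all treated libraries above the controls, with log2 fold changes of 1.09 ± 0.20 with Aβ42 fibrils (adjusted p = 0.00116) and 1.09 ± 0.19 with Aβ40 fibrils (adjusted p = 0.00127). In microglia it was at 47.3, 43.8 and 48.1 scaled CPM in the control libraries, 46.3, 59.8 and 59.8 with Aβ42 fibrils and 55.7, 47.0 and 55.6 with Aβ40 fibrils, where the groups overlapped and the log2 fold changes of 0.26 ± 0.12 and 0.18 ± 0.13 did not pass (adjusted p = 0.098 and 0.297). The overlapping Aβ42 library was replicate 1, and without it the Aβ42 increase in microglia was called, at 0.32 ± 0.09 (adjusted p = 0.00591). The difference between the responses was -0.85 ± 0.24 (adjusted p = 0.00891) and -0.93 ± 0.24 (adjusted p = 0.0059). Its paralogue Sppl2b rose in microglia with Aβ42 fibrils by 1.43 (adjusted p = 0.000887) and had a log2 fold change of 0.39 (adjusted p = 0.306) with Aβ40. Among other lysosomal genes, 8 of 10 were lower in microglia with Aβ42 fibrils and 7 with Aβ40, the others did not pass, and the medians were -0.69 and -0.74, where 26.6% and 21.4% of all genes were lower. The highest were Psap with Aβ42 (0.08, adjusted p = 0.564) and Scarb2 with Aβ40 (-0.09, adjusted p = 0.534). In astrocytes 1 of 11 was higher with Aβ42 fibrils, Ctsb at 0.61, where 16.5% of all genes were, the median was -0.02 with either fibril, and the lowest were Ctsd with Aβ42 (-0.34, adjusted p = 0.233) and Gusb with Aβ40 (-0.35, adjusted p = 0.106).

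Among the genes of endocytosis and sorting, Sorl1 fell in astrocytes and Rin3 rose there with Aβ40, while in microglia Rin3, Usp6nl, Picalm and, with Aβ42, Cd2ap fell and Bin1 and Sorl1 rose with Aβ42. In all, 2 of 7 rose and 4 fell in microglia with Aβ42 fibrils, and 3 fell with Aβ40. Among all genes 27.1% rose and 26.6% fell there with Aβ42, and 21.4% fell with Aβ40. Sorl1 in astrocyte cultures was at 122, 145 and 138 scaled CPM in the control libraries, 43.1, 42.6 and 40.8 with Aβ42 fibrils and 57.9, 53.9 and 55.2 with Aβ40 fibrils, with every treated library below the controls and fold changes of -1.70 ± 0.12 with Aβ42 fibrils (adjusted p = 1.17e-06) and -1.30 ± 0.12 with Aβ40 fibrils (adjusted p = 8.79e-06). The microglia cultures gave 4.06, 5.18 and 4.72 scaled CPM in the control libraries, 5.24, 6.54 and 7.55 with Aβ42 fibrils and 7.80, 4.9996 and 6.58 with Aβ40 fibrils, with log2 fold changes of 0.53 ± 0.21 with Aβ42 fibrils (adjusted p = 0.0494) and 0.48 ± 0.25 with Aβ40 fibrils (adjusted p = 0.15). The first of those passed the test narrowly and was lost without any 1 of 7 libraries, namely the 3 controls (adjusted p = 0.178, 0.0552 and 0.0896), Aβ42 replicates 2 and 3 (0.109 and 0.224) and Aβ40 replicates 1 and 3 (0.0533 and 0.0622), with DESeq2 (adjusted p = 0.129), with library totals alone (0.0611), without the low-count filter (0.0653) and with only the groups compared (0.0501). The response was higher in microglia by 2.23 ± 0.22 (adjusted p = 2.17e-07) and 1.76 ± 0.25 (adjusted p = 1.93e-05). Sort1, a sorting receptor of the same family, fell in microglia at log2 fold changes of -2.87 (adjusted p = 2.14e-09) and -2.56 (adjusted p = 5.83e-09) and in astrocytes by -0.77 (adjusted p = 0.000554) and -0.63 (adjusted p = 0.00243), and Sorcs2 fell in astrocytes at log2 fold changes of -1.50 and -1.33 and rose in microglia by 0.67 and 0.85.

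Rin3, an exchange factor that activates Rab5 on early endosomes, was at 84.4, 83.5 and 90.6 scaled CPM in the control libraries, 43.2, 32.3 and 44.9 with Aβ42 fibrils and 44.4, 41.7 and 44.0 with Aβ40 fibrils in microglia cultures. The log2 fold changes were -1.14 ± 0.14 with Aβ42 fibrils (adjusted p = 2.16e-05) and -0.99 ± 0.14 with Aβ40 fibrils (adjusted p = 0.000117), with all treated libraries below the controls. In astrocyte cultures it was at 32.2, 18.6 and 30.8 scaled CPM in the control libraries, 43.3, 36.2 and 34.7 with Aβ42 fibrils and 37.3, 51.8 and 41.5 with Aβ40 fibrils, all treated libraries again apart from the controls but above them. The astrocyte log2 fold changes were 0.46 ± 0.22 with Aβ42 fibrils (adjusted p = 0.13) and 0.66 ± 0.22 with Aβ40 fibrils (adjusted p = 0.0381), and the Aβ40 call was lost without Aβ42 replicate 2 (adjusted p = 0.057), Aβ40 replicate 2 (0.141) or Aβ40 replicate 3 (0.0737), and with only the groups compared (0.0763). The response was more negative in microglia, with differences of -1.59 ± 0.26 (adjusted p = 7.88e-05) and -1.66 ± 0.26 (adjusted p = 6.44e-05). Rin2 fell in microglia as well, at log2 fold changes of -2.95 (adjusted p = 1.06e-09) and -2.84 (adjusted p = 1.66e-09), and had log2 fold changes of 0.27 (adjusted p = 0.0696) and 0.10 (adjusted p = 0.522) in astrocytes.

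Usp6nl, which turns Rab5 off, was at 98.4, 106 and 109 scaled CPM in the control libraries, 63.3, 41.1 and 38.8 with Aβ42 fibrils and 65.9, 62.5 and 66.8 with Aβ40 fibrils in microglia cultures, with log2 fold changes of -1.20 ± 0.17 with Aβ42 fibrils (adjusted p = 8e-05) and -0.68 ± 0.17 with Aβ40 fibrils (adjusted p = 0.00616). Picalm, an adaptor that assembles clathrin coats, was at 505, 492 and 511 scaled CPM in the control libraries, 353, 227 and 245 with Aβ42 fibrils and 360.3, 341 and 382 with Aβ40 fibrils, with log2 fold changes of -0.89 ± 0.16 with Aβ42 fibrils (adjusted p = 0.000493) and -0.48 ± 0.16 with Aβ40 fibrils (adjusted p = 0.0282). The treated libraries of both genes were below the controls, and Aβ42 replicate 1 lay nearer to the Aβ40 libraries than Aβ42 replicates 2 and 3 did. The Aβ40 call of Picalm was lost without control replicate 1 (adjusted p = 0.0917), control replicate 2 (0.0702), control replicate 3 (0.1), Aβ40 replicate 1 (0.0852) or Aβ40 replicate 2 (0.102). In astrocyte cultures Usp6nl was at 53.6, 94.8 and 54.1 scaled CPM in the control libraries, 63.2, 69.9 and 65.5 with Aβ42 fibrils and 71.3, 66.7 and 62.7 with Aβ40 fibrils, and Picalm at 109.6, 144 and 107 scaled CPM in the control libraries, 136, 145 and 162 with Aβ42 fibrils and 160.2, 130.5 and 132 with Aβ40 fibrils. Neither passed the test there (adjusted p of 0.164 to 0.943). Without astrocyte control replicate 2, Picalm was called higher in astrocytes with both fibrils, at 0.43 ± 0.12 (adjusted p = 0.012) and 0.37 ± 0.12 (adjusted p = 0.0288), and Usp6nl with Aβ40, at 0.30 ± 0.11 (adjusted p = 0.0457). The response was more negative in microglia for Usp6nl at a difference of -1.15 ± 0.27 (adjusted p = 0.00244) with Aβ42 and for Picalm at differences of -1.18 ± 0.22 (adjusted p = 0.00028) and -0.71 ± 0.22 (adjusted p = 0.0163), the last lost without astrocyte control replicate 1 (0.0539) or astrocyte Aβ40 replicate 1 (0.0606). The Aβ40 response of Usp6nl, at -0.68 ± 0.27 (adjusted p = 0.0639), was called more negative in microglia without astrocyte control replicate 2 (-0.999 ± 0.20 (adjusted p = 0.000626)) and without microglia Aβ42 replicate 1 (-0.69 ± 0.23 (adjusted p = 0.028)).

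Cd2ap, a scaffold between endocytic membrane and actin, was at 201, 175 and 224 scaled CPM in the control libraries, 137, 58.0 and 60.2 with Aβ42 fibrils and 137, 140.0 and 164 with Aβ40 fibrils in microglia cultures. With Aβ42 fibrils it fell at a log2 fold change of -1.31 ± 0.28 (adjusted p = 0.0019), and its log2 fold change with Aβ40 was -0.45 ± 0.27 (adjusted p = 0.218). Without Aβ42 replicate 1, whose level lay close to the Aβ40 libraries, the Aβ42 log2 fold change was -1.80 ± 0.11 (adjusted p = 5.36e-10) and the Aβ40 decrease was also called, at -0.46 ± 0.10 (adjusted p = 0.000863). The astrocyte cultures were at 20.9, 44.0 and 22.3 scaled CPM in the control libraries, 24.3, 27.7 and 29.3 with Aβ42 fibrils and 28.6, 26.8 and 25.9 with Aβ40 fibrils, with no call. The Aβ42 response was more negative in microglia, with a difference of -1.20 ± 0.39 (adjusted p = 0.0213), a call lost without any 1 of 5 libraries, astrocyte control replicate 1 or 3 (0.0829 and 0.0626), microglia control replicate 3 (0.0514) and microglia Aβ42 replicate 2 or 3 (0.0653 and 0.0626).

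Bin1, which bends endocytic membranes, was at 149 to 165 scaled CPM in control microglia, at 248 ± 43.7 (mean and SD, n = 3) with Aβ42 and at 163 to 224 with Aβ40 fibrils. It rose with Aβ42 by 0.67 ± 0.14 (adjusted p = 0.00159), and its Aβ40 log2 fold change was 0.33 ± 0.14 (adjusted p = 0.0789). Without Aβ42 replicate 1 the Aβ40 increase was called, at 0.34 ± 0.10 (adjusted p = 0.00934), and without astrocyte control replicate 2 the Aβ42 response of Bin1 was called higher in microglia than in astrocytes, at 0.53 ± 0.20 (adjusted p = 0.0347). The oligodendrocyte lineage markers, a cell type that also expresses Bin1, summed to 2381 to 3215 scaled CPM in the microglia cultures with Aβ42 fibrils and to 2427 to 2979.8 with Aβ40, against 2169.8 to 2421 in the controls, and their part in the Bin1 values was not tested. Bin2, a paralogue of blood cells and microglia, fell in microglia at log2 fold changes of -1.81 and -1.67 and in astrocyte cultures by -3.97 and -4.52. Snx1, a sorting nexin of the retromer, was not called against control with all libraries, with log2 fold changes between -0.16 and 0.12, and was called lower in microglia with Aβ42 without Aβ42 replicate 1, at -0.26 ± 0.08 (adjusted p = 0.00758). Its paralogue Snx2 fell in microglia at log2 fold changes of -1.01 (adjusted p = 0.000272) and -0.67 (adjusted p = 0.00595). Of 20 partners in clathrin endocytosis, 5 were higher and 10 lower in microglia with Aβ42 and 4 and 8 with Aβ40, with medians of -0.34 and -0.19, and in astrocytes 3 were higher and 2 lower and 3 and 1, with medians of 0.02 and -0.05. Among all genes 27.1% were higher and 26.6% lower in microglia with Aβ42 and 19.6% and 21.4% with Aβ40, and in astrocytes 16.5% and 20.4%, and 14.9% and 18.4%. The highest and lowest of that list were Ap2s1 (1.15) and Eps15 (-1.13) in microglia with Aβ42, and Epn2 (0.70) and Cltb (-0.93) in astrocytes. Of 13 partners of the retromer and sorting, 1 was higher and 7 lower in microglia with Aβ42 (median -0.35, from Snx5 at -1.46 to Igf2r at 1.10) and 2 and 4 with Aβ40 (median -0.19, from Gga2 at -1.72 to Igf2r at 0.98), while in astrocytes 1 was higher and 3 lower with Aβ42 and 2 lower with Aβ40 (medians 0.13 and 0.08, lowest Snx5 at -0.91 and -0.94, highest Gga2 at 0.57 and 0.39).

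Clu rose in both cultures and most in microglia, where the control level was the lower one. In microglia cultures it was at 462, 526 and 448 scaled CPM in the control libraries, 1430.1, 1571 and 1550.1 with Aβ42 fibrils and 1313, 1370.2 and 1346 with Aβ40 fibrils, with log2 fold changes of 1.65 ± 0.10 with Aβ42 fibrils (adjusted p = 3.97e-08) and 1.49 ± 0.10 with Aβ40 fibrils (adjusted p = 1.25e-07). In astrocyte cultures it was at 1799.8, 1411 and 1367 scaled CPM in the control libraries, 2383, 2594 and 2626 with Aβ42 fibrils and 2467, 2327 and 2349 with Aβ40 fibrils, with log2 fold changes of 0.71 ± 0.12 with Aβ42 fibrils (adjusted p = 0.000883) and 0.63 ± 0.12 with Aβ40 fibrils (adjusted p = 0.00226). No treated library overlapped the controls in either culture, and the rise was larger in microglia by 0.93 ± 0.16 (adjusted p = 0.000117) and 0.85 ± 0.16 (adjusted p = 0.00036). With fibrils the microglial levels overlapped the range of the control astrocyte levels and stayed under the treated ones. Abca7, a lipid transporter, and Cr1l, a regulator of complement, were not called against control with all libraries. Abca7 had log2 fold changes of 0.45 ± 0.20 and 0.49 ± 0.20 in astrocytes (adjusted p = 0.109 and 0.0841) and 0.27 ± 0.12 and 0.21 ± 0.13 in microglia, where it was called higher with Aβ42 without Aβ42 replicate 1, at 0.32 ± 0.10 (adjusted p = 0.0101). Cr1l had log2 fold changes of -0.05 to 0.15. Abca1, a transporter related to Abca7, fell in microglia at log2 fold changes of -0.61 (adjusted p = 0.000491) and -0.56 (adjusted p = 0.00115).

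Of the 5 adhesion and cytoskeleton members tested in microglia, 2 rose and 2 fell with each fibril. Among all genes 27.1% rose and 26.6% fell there with Aβ42, and 19.6% and 21.4% with Aβ40. Mapt, which codes for tau, moved in opposite directions in the 2 cultures. In microglia cultures it was at 180.5, 182 and 167 scaled CPM in the control libraries, 259, 284 and 259 with Aβ42 fibrils and 274, 312 and 282 with Aβ40 fibrils, with log2 fold changes of 0.59 ± 0.10 with Aβ42 fibrils (adjusted p = 0.000305) and 0.71 ± 0.10 with Aβ40 fibrils (adjusted p = 8.42e-05). Its level in astrocyte cultures was 99.2, 78.6 and 102 scaled CPM in the control libraries, 69.2, 52.4 and 52.8 with Aβ42 fibrils and 49.4, 74.0 and 55.8 with Aβ40 fibrils, with log2 fold changes of -0.70 ± 0.19 with Aβ42 fibrils (adjusted p = 0.0146) and -0.66 ± 0.19 with Aβ40 fibrils (adjusted p = 0.0222). The treated libraries lay above the controls in microglia and below them in astrocytes, and the responses differed, with log2 differences of 1.28 ± 0.21 (adjusted p = 9.5e-05) and 1.36 ± 0.21 (adjusted p = 6.25e-05). The astrocyte call with Aβ42 was lost without Aβ42 replicate 2 or 3 (adjusted p = 0.0679 and 0.0536), and that with Aβ40 without control replicate 1 or 3 (0.064 and 0.0638) or Aβ40 replicate 1 or 3 (0.0914 and 0.0791). The 6 neuronal markers, summed, moved the same way, from 369 to 423 scaled CPM in control astrocyte libraries to 191 to 199 (Aβ42) and 271 to 293 (Aβ40), and from 103 to 128 in control microglia libraries to 177 to 232 and 176 to 208, with Nefl at or under the floor in 2 of the 3 microglia groups, and their part in the Mapt values was not tested. Map2, another microtubule protein of neurons, fell in astrocytes at log2 fold changes of -1.47 (adjusted p = 0.000292) and -1.28 (adjusted p = 0.000837).

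Ank3, the membrane scaffold ankyrin-G, was at 118, 137 and 123 scaled CPM in the control libraries, 86.9, 66.6 and 64.8 with Aβ42 fibrils and 91.1, 94.99 and 94.6 with Aβ40 fibrils in microglia cultures. The log2 fold changes were -0.83 ± 0.13 with Aβ42 fibrils (adjusted p = 0.000209) and -0.43 ± 0.13 with Aβ40 fibrils (adjusted p = 0.0211), with the treated libraries below the controls. The Aβ40 call was lost without control replicate 2 (0.0945), control replicate 3 (0.0649), Aβ40 replicate 1 (0.0804) or Aβ40 replicate 2 (0.0617). Astrocyte cultures held it at 15.7, 26.7 and 19.6 scaled CPM in the control libraries, 18.03, 17.5 and 17.7 with Aβ42 fibrils and 20.2, 18.8 and 17.1 with Aβ40 fibrils, with no call. The Aβ42 responses differed, with a log2 difference of -0.59 ± 0.22 (adjusted p = 0.0426), a call lost without any 1 of 15 of the 18 libraries (adjusted p of 0.0509 to 0.17), with library totals alone (0.0796), with DESeq2 size factors (0.0809) and at 10 counts in every library (0.0667).

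Cass4 in microglia cultures was at 62.0, 64.1 and 69.8 scaled CPM in the control libraries, 46.3, 47.4 and 53.9 with Aβ42 fibrils and 43.3, 39.7 and 44.0 with Aβ40 fibrils, below the controls in every treated library, with log2 fold changes of -0.42 ± 0.11 with Aβ42 fibrils (adjusted p = 0.00676) and -0.63 ± 0.12 with Aβ40 fibrils (adjusted p = 0.000891). In astrocyte cultures, where it was not tested, it was at 0.523, 0.674 and 0.911 scaled CPM in the control libraries, 0.386, 0.191 and 0.116 with Aβ42 fibrils and 0.199, 0.250 and 0.438 with Aβ40 fibrils. Ptk2b, the adhesion kinase Pyk2, rose in microglia by 0.41 ± 0.11 (adjusted p = 0.00639) and 0.54 ± 0.11 (adjusted p = 0.00155) from 161 to 185 scaled CPM to 212 to 244 and 233 to 259, and its astrocyte log2 fold changes were 0.37 ± 0.17 and 0.37 ± 0.17 (adjusted p = 0.109 and 0.118). Fermt2 was not called against control with all libraries, with log2 fold changes between -0.23 and 0.29, and was called higher in microglia with Aβ40 without Aβ42 replicate 1, at 0.30 ± 0.10 (adjusted p = 0.0177). Fermt3, the kindlin of blood cells, was higher in control microglia by 4.85 (adjusted p = 1.28e-11) and fell in both cultures, at log2 fold changes of -0.40 and -0.69 in microglia and -1.97 and -2.28 in astrocytes. Nedd9, a paralogue of Cass4, rose in astrocytes by 1.51 (adjusted p = 7.23e-05) and 1.41 (adjusted p = 0.000132). Of 12 tested partners in integrin and focal adhesion signalling, 3 were higher and 5 lower in microglia with Aβ42 and 4 and 4 with Aβ40 (medians -0.15 and 0.12), and 1 was higher and 1 lower in astrocytes with either fibril (medians -0.00 and 0.12). The shares of all genes higher and lower were 27.1% and 26.6%, then 19.6% and 21.4% in microglia, and 16.5% and 20.4%, then 14.9% and 18.4% in astrocytes. Vcl was the lowest of them in each comparison, at -0.92, -0.72, -0.65 and -0.42, and the highest were Zyx (0.78) and Parva (1.23) in microglia and Parva in astrocytes (0.43 and 0.42).

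In the mixed group, Plekha1, Tspan14, Wwox and Slc24a4 fell in microglia with Aβ42 fibrils and Echdc3 rose. Plekha1, which binds the lipid product of Inpp5d, was at 430.0, 476 and 489 scaled CPM in the control libraries, 222, 198 and 182 with Aβ42 fibrils and 221, 232 and 255 with Aβ40 fibrils in microglia cultures, with log2 fold changes of -1.23 ± 0.12 with Aβ42 fibrils (adjusted p = 2.86e-06) and -0.98 ± 0.12 with Aβ40 fibrils (adjusted p = 2.65e-05). The astrocyte cultures gave 54.7, 67.6 and 55.3 scaled CPM in the control libraries, 46.2, 49.0 and 60.5 with Aβ42 fibrils and 58.3, 45.0 and 47.0 with Aβ40 fibrils, with no call, and the response was more negative in microglia, with differences of -1.03 ± 0.19 (adjusted p = 0.000343) and -0.74 ± 0.19 (adjusted p = 0.00598). Treated and control microglia libraries did not overlap.

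Tspan14, a tetraspanin that escorts the protease ADAM10, was at 79.1, 68.9 and 87.0 scaled CPM in the control libraries, 29.3, 53.5 and 50.9 with Aβ42 fibrils and 40.6, 30.7 and 24.8 with Aβ40 fibrils in microglia cultures. The log2 fold changes were -0.78 ± 0.19 with Aβ42 fibrils (adjusted p = 0.00511) and -1.27 ± 0.21 with Aβ40 fibrils (adjusted p = 0.000419), and without Aβ42 replicate 1 the Aβ42 log2 fold change was -0.63 ± 0.12 (adjusted p = 0.000255). Its level in astrocyte cultures was 24.6, 15.5 and 29.3 scaled CPM in the control libraries, 25.6, 26.3 and 26.0 with Aβ42 fibrils and 24.1, 23.5 and 25.9 with Aβ40 fibrils, with no call. The response was more negative in microglia, with differences of -0.91 ± 0.30 (adjusted p = 0.0243) and -1.32 ± 0.31 (adjusted p = 0.00292), the former lost without microglia control replicate 3 (adjusted p = 0.0616).

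Wwox, an oxidoreductase with WW domains, was at 8.12, 11.9 and 8.94 scaled CPM in the control libraries, 3.93, 5.55 and 5.14 with Aβ42 fibrils and 5.65, 8.25 and 7.59 with Aβ40 fibrils in microglia cultures. It fell with Aβ42 at a log2 fold change of -0.90 ± 0.20 (adjusted p = 0.0028) and had a log2 fold change of -0.41 ± 0.23 (adjusted p = 0.18) with Aβ40. Astrocyte cultures held it at 12.04, 11.5 and 12.2 scaled CPM in the control libraries, 10.2, 9.10 and 11.8 with Aβ42 fibrils and 10.4, 12.2 and 12.01 with Aβ40 fibrils, with no call. The Aβ42 responses differed, with a log2 difference of -0.68 ± 0.26 (adjusted p = 0.0462), a call lost without any 1 of 14 of the 18 libraries (adjusted p of 0.0525 to 0.131), with library totals alone (0.0718), with DESeq2 size factors (0.0643), with DESeq2 (0.0832) and without the low-count filter (0.067).

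Echdc3, a mitochondrial protein of the enoyl-CoA hydratase family, was at 3.67, 2.59 and 3.04 scaled CPM in the control libraries, 5.24, 9.98 and 9.24 with Aβ42 fibrils and 5.11, 7.999 and 9.10 with Aβ40 fibrils in microglia cultures. It rose by 1.47 ± 0.26 (adjusted p = 0.000495) with Aβ42 and by 1.18 ± 0.31 (adjusted p = 0.00883) with Aβ40, the latter lost without Aβ40 replicate 2 (adjusted p = 0.0516). The astrocyte cultures were at 7.85, 3.37 and 4.75 scaled CPM in the control libraries, 4.83, 5.46 and 3.58 with Aβ42 fibrils and 5.78, 6.35 and 4.32 with Aβ40 fibrils, with overlapping groups and no call, and the Aβ42 response was higher in microglia by 1.62 ± 0.42 (adjusted p = 0.00466). Without astrocyte control replicate 2 the Aβ40 response was called higher too, at 1.23 ± 0.43 (adjusted p = 0.031). Slc24a4, an exchanger of sodium, calcium and potassium, was at 3.14, 3.82 and 3.12 scaled CPM in the control libraries, 1.03, 0.383 and 1.16 with Aβ42 fibrils and 0.997, 1.15 and 1.81 with Aβ40 fibrils in astrocyte cultures. It fell there at log2 fold changes of -1.95 ± 0.37 (adjusted p = 0.00167) and -1.31 ± 0.33 (adjusted p = 0.0105), all treated libraries below the controls. In microglia cultures, at 4.19, 3.02 and 3.71 scaled CPM in the control libraries, 1.75, 2.36 and 1.82 with Aβ42 fibrils and 3.50, 3.75 and 2.02 with Aβ40 fibrils, it fell with Aβ42 at a log2 fold change of -0.86 ± 0.25 (adjusted p = 0.0129), a call lost without control replicate 1 (0.0832) or Aβ42 replicate 3 (0.0828). Slc24a3 fell in astrocytes at log2 fold changes of -1.27 (adjusted p = 2.67e-05) and -1.11 (adjusted p = 6.85e-05) and rose in microglia by 1.90 (adjusted p = 2.28e-05) and 1.63 (adjusted p = 0.000228).

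Ace, the angiotensin-converting enzyme, was at 42.9, 48.5 and 45.5 scaled CPM in the control libraries, 36.1, 31.0 and 32.1 with Aβ42 fibrils and 33.4, 37.3 and 37.8 with Aβ40 fibrils in astrocyte cultures. It fell with Aβ42 at a log2 fold change of -0.49 ± 0.13 (adjusted p = 0.0133), a call lost without Aβ42 replicate 2 (0.0747), and its Aβ40 log2 fold change was -0.35 ± 0.13 (adjusted p = 0.0602). In microglia cultures it was at 52.5, 64.3 and 48.6 scaled CPM in the control libraries, 47.2, 65.2 and 56.3 with Aβ42 fibrils and 63.7, 59.7 and 56.1 with Aβ40 fibrils, with overlapping groups and no call. The Aβ42 responses differed, with a log2 difference of 0.51 ± 0.19 (adjusted p = 0.045), a call lost without any 1 of 10 of the 18 libraries (adjusted p of 0.0525 to 0.159) and without the low-count filter (0.0711).

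The fibrils were also compared with each other. In astrocytes no member was called by edgeR or by DESeq2, where 0.0599% of all genes were higher with Aβ42 than with Aβ40 and 0.0257% lower. At an unadjusted p under 0.05, Blnk was higher (0.65 ± 0.19, adjusted p = 0.334) and Sorl1 lower (-0.41 ± 0.12, adjusted p = 0.334) with Aβ42. The 95% interval of the difference lay within 2-fold for 29 of the 33 members, and it was -2.30 to 3.01 for Abi3, -1.47 to 0.20 for Slc24a4, -0.30 to 1.23 for Inpp5d and 0.24 to 1.06 for Blnk.

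In microglia, 11.3% of all genes were higher with Aβ42 than with Aβ40 and 9.01% lower, and Celf1, an RNA-binding protein of splicing and mRNA decay, was the 1 member called, by -0.42 ± 0.13 (adjusted p = 0.0456). It was at 103, 121 and 113 scaled CPM in the control libraries, 115, 86.1 and 88.3 with Aβ42 fibrils and 120.2, 129.99 and 127 with Aβ40 fibrils, so that Aβ42 replicates 2 and 3 lay below the Aβ40 libraries and Aβ42 replicate 1 close to them. The astrocyte cultures gave 60.7, 99.0 and 68.0 scaled CPM in the control libraries, 85.5, 101 and 112 with Aβ42 fibrils and 100.3, 73.9 and 77.6 with Aβ40 fibrils, with no call. Against control, Celf1 was called lower in microglia with Aβ42 without microglia Aβ42 replicate 1, at -0.41 ± 0.08 (adjusted p = 0.000386), and higher in astrocytes with Aβ42 without astrocyte control replicate 2, at 0.60 ± 0.16 (adjusted p = 0.00758). The call between the fibrils was lost without any 1 of 8 of the 9 microglia libraries (adjusted p of 0.0606 to 0.194) and with only the groups compared (0.101), and was kept without Aβ42 replicate 1. At an unadjusted p under 0.05, 3 members were higher and 7 lower, and DESeq2 called 4 members. The Aβ42 response of Celf1 differed between the cell types, with a log2 difference of -0.63 ± 0.24 (adjusted p = 0.0489), a call lost without any 1 of 15 of the 18 libraries (adjusted p of 0.0527 to 0.174), with library totals alone (0.0789), with DESeq2 size factors (0.0836), with DESeq2 (0.0758) and at 10 counts in every library (0.0728).

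**Figure D5:**
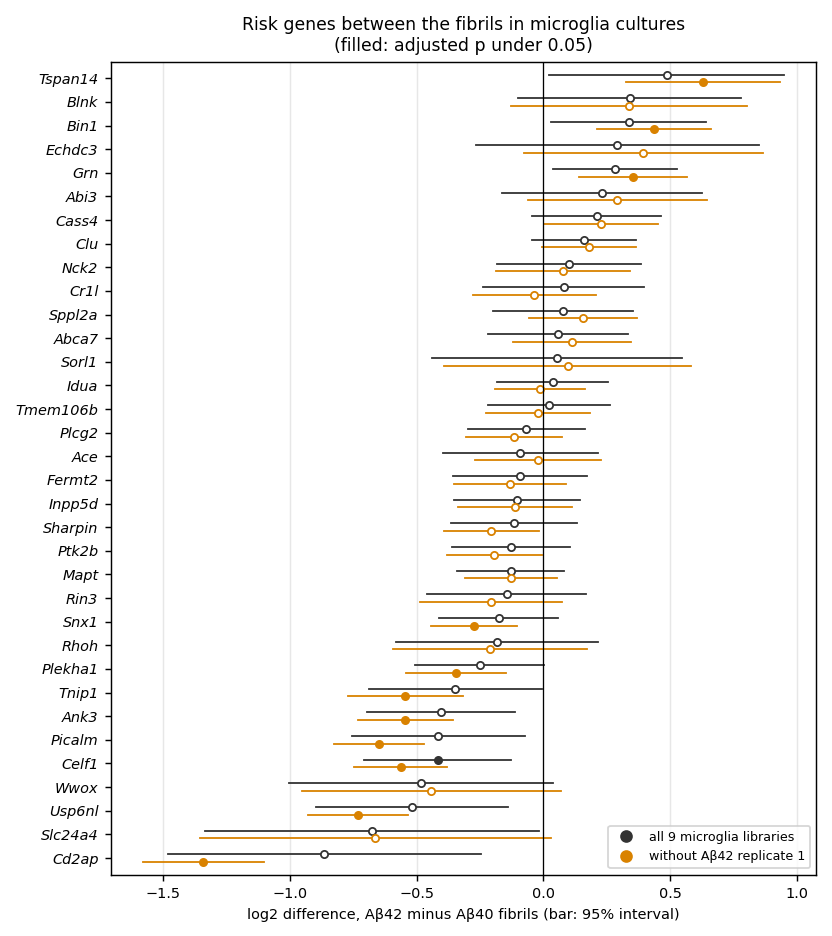
Log2 difference between Aβ42 and Aβ40 fibrils in microglia cultures for each tested risk gene, with 95% intervals, fitted with all 9 microglia libraries (dark) and without Aβ42 replicate 1 (orange), and with filled points for an adjusted p under 0.05. Celf1 is called with all libraries, and 11 members are called without Aβ42 replicate 1, with Cd2ap the lowest.

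The difference between the fibrils in microglia depended on Aβ42 replicate 1, the shallower library of that group at 2613723 counts against 22274367 and 17687416. The Aβ40 libraries held 4104702, 4425805 and 2271834 counts. Without Aβ42 replicate 1, every Aβ42 library was thus deeper than every Aβ40 library, and fibril and depth cannot be told apart. In that fit 11 of 34 members were called, 3 higher and 8 lower with Aβ42, where 27.1% and 26.8% of all genes were. Cd2ap (-1.34 ± 0.11, adjusted p = 3.22e-07), Usp6nl (-0.73 ± 0.09, adjusted p = 1.2e-05), Picalm (-0.65 ± 0.08, adjusted p = 1.43e-05), Celf1 (-0.56 ± 0.09, adjusted p = 6.06e-05), Ank3 (-0.54 ± 0.09, adjusted p = 0.000103) and Tnip1 (-0.54 ± 0.11, adjusted p = 0.000548) were then lower, together with Plekha1 and Snx1. Tspan14 (0.63 ± 0.14, adjusted p = 0.00177), Bin1 (0.44 ± 0.11, adjusted p = 0.00277) and Grn (0.35 ± 0.10, adjusted p = 0.00764) were higher. With all libraries the intervals lay within 2-fold for 31 of the 34 members, the exceptions being Cd2ap (-1.48 to -0.25), Slc24a4 (-1.34 to -0.02) and Wwox (-1.002 to 0.04).

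Paralogues of the members and the signalling partners of the immune members were read from the same fits. Of the paralogues, 8 of 43 tested were higher and 16 lower in astrocytes with Aβ42 fibrils and 6 and 15 with Aβ40, with medians of -0.24 and -0.22, where 16.5% and 20.4%, and 14.9% and 18.4%, of all genes were. In microglia 12 of 40 were higher and 13 lower with Aβ42 and 9 and 13 with Aβ40, with medians of -0.11 and 0.11, where 27.1% and 26.6%, and 19.6% and 21.4%, of all genes were. The highest was Tmem106a in astrocytes and Epha2, a receptor related to Epha1, in microglia, at 2.03 and 1.88. Cd22, a siglec like Cd33, was the lowest in astrocyte cultures, with 1.69 to 3.37 scaled CPM in the controls and 0 counts in all 6 treated libraries, at least 31.5-fold lower with Aβ42 and 41.9-fold lower with Aβ40 against a floor of 3 counts over the group, and it fell in microglia at log2 fold changes of -4.53 and -3.32. Siglec1 was the lowest in microglia with Aβ40, at -3.89. In control cultures 17 of 44 paralogues were higher in microglia and 21 lower (median -0.19), where 34.2% and 34.5% of all genes were.

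Receptor-proximal signalling partners had all 15 tested members higher in control microglia, with a median of 4.26, from Grb2 (2.18) to Vav1 (5.61), where 34.2% of all genes were higher. With Aβ42 fibrils 3 of 16 were higher and 8 lower in microglia and 4 higher and 9 lower in astrocyte cultures (medians -0.41 and -1.36), and with Aβ40 fibrils 3 and 8, and 4 and 10 (medians -0.35 and -1.38). Of all genes, 27.1% were higher and 26.6% lower with Aβ42 in microglia and 16.5% and 20.4% in astrocytes, and with Aβ40 19.6% and 21.4%, and 14.9% and 18.4%. Syk, the kinase upstream of Blnk and Plcg2, fell in microglia at log2 fold changes of -1.61 (adjusted p = 1.47e-07) and -1.43 (adjusted p = 5.71e-07) and in astrocyte cultures by -3.44 (adjusted p = 1.88e-06) and -3.70 (adjusted p = 1.13e-06), and it is named here after its values were seen. Pik3cd, a PI3K subunit of blood cells, was the lowest in microglia (-2.73 and -2.89), where Fgr (0.86) was the highest with Aβ40, and in astrocyte cultures Lat2 was the lowest (-3.75 and -5.31) and the kinase Fgr the highest (3.15 and 2.96). The microglial marker sum of the astrocyte cultures was lower with both fibrils, as given above. Its part in the astrocyte culture values of Cd22, Bin2, Fermt3 and these partners was not tested.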

How the data were processed

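RNA-seq counts of 18 libraries were analysed. Per the labels and the study's methods, reads were aligned with STAR to rat build rn5, and the authors deposited counts per gene, 1 table for each library. The submitters' processing notes also name Salmon and DESeq2. The deposited counts are whole numbers, not normalized. Rows that name no gene, 26.0% to 34.2% of the total in astrocytes and 21.7% to 24.5% in microglia, were left out of library sizes. Tests used edgeR 4.0.16 (R 4.3.3) with TMM scaling, filterByExpr, a fit of the 9 libraries of a cell type, or of all 18 on 16704 shared symbols, glmQLFTest and Benjamini-Hochberg adjustment over all tested genes at 0.05. Errors are standard errors, and log2 fold changes are fitted values. DESeq2 1.42.0, other scalings and filters, a replicate block and leaving out each library were alternatives, and scripts were tested on simulated data. The members, gene lists and tests were chosen with earlier results of these data known. Values in every library are given for members called at 2-fold against control, between fibrils or in an interaction, or 8-fold apart between the cell types. Promoters came from RefSeq (GRCr8) by symbol, and 29 of 35 members matched. Figures used matplotlib 3.10.9. Gene pairs that share sequence or overlap could share reads. Values of a few listed genes are not reported here.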

Additional observations from a re-analysis of the deposited data

Results flagged for a closer look

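The responses of 24 risk genes to Aβ42 fibrils and of 17 to Aβ40 fibrils differed between microglia and astrocytes by the interaction term of edgeR's quasi-likelihood test, and each difference is the log2 response in microglia minus that in astrocytes. With Aβ42, 7 members responded higher and 17 lower, where 19.3% and 17.9% of all genes did, and with Aβ40 5 higher and 12 lower, where 16% and 16.5% did. With Aβ42 fibrils the response was lower in microglia for Blnk (-3.22), Rin3 (-1.59), Idua (-1.47), Grn (-1.36), Tnip1 (-1.34), Tmem106b (-1.21), Cd2ap (-1.20), Picalm (-1.18), Usp6nl (-1.15), Plekha1 (-1.03), Tspan14 (-0.91), Plcg2 (-0.89), Sppl2a (-0.85), Sharpin (-0.82), Wwox (-0.68), Celf1 (-0.63) and Ank3 (-0.59). It was higher in microglia for Ace (0.51), Clu (0.93), Mapt (1.28), Echdc3 (1.62), Inpp5d (1.79), Sorl1 (2.23) and Abi3 (4.65). With Aβ40 fibrils the response was lower in microglia for Blnk (-2.93), Rin3 (-1.66), Idua (-1.45), Grn (-1.41), Tspan14 (-1.32), Tmem106b (-1.20), Sppl2a (-0.93), Tnip1 (-0.87), Plekha1 (-0.74), Picalm (-0.71), Plcg2 (-0.67) and Sharpin (-0.64), and it was higher for Clu (0.85), Mapt (1.36), Sorl1 (1.76), Inpp5d (2.35) and Abi3 (4.76). The calls in the 2 cultures had opposite signs for Mapt with both fibrils, Sorl1 with Aβ42 and Rin3 with Aβ40, while Inpp5d and Abi3 fell in both cultures and more so in astrocytes. The microglial call of Sorl1 was lost without any 1 of 7 libraries, and the astrocyte call of Rin3 without any 1 of 3. The astrocyte calls of Mapt were lost without any 1 of 2 (Aβ42) or 4 (Aβ40) libraries. The Aβ42 interaction calls of Ank3, Celf1, Wwox, Ace and Cd2ap were lost without any 1 of 15, 15, 14, 10 and 5 of the 18 libraries. The values of Abi3 rest on 1 count in each treated astrocyte library, and the microglial marker sum of the astrocyte cultures moved with those of Inpp5d, Abi3 and Blnk, and its part in them was not tested.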

How the results depend on the processing

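No called value of a risk gene changed sign under any alternative, and of the recomputed values of called members 2707 stayed past the threshold and 137 lost it. Requiring 2-fold or more left 7 members called in astrocytes with each fibril, 13 and 11 in microglia with Aβ42 and Aβ40, 15 and 10 in the Aβ42 and Aβ40 interactions, and 0 between the fibrils in microglia. Between the fibrils in astrocytes, fitting only the 2 groups compared called 1 member in place of 0. Between the fibrils in microglia, where 1 member was called, 4 were called with library totals alone and with DESeq2, 3 without the low-count filter, 0 with the replicate block and 0 with only the 2 groups compared, and 0 to 11 when 1 library was left out. Same-numbered libraries correlated above 0.1 in 2 of 9 pairs in astrocytes (-0.53 to 0.36) and 1 of 9 in microglia (-0.19 to 0.22). With 3 libraries in a group, these correlations cannot decide whether the replicate numbers pair the libraries. Differently numbered astrocyte libraries correlated from -0.46 to 0.53. Control 2, Aβ42 3 and Aβ40 1 did so among themselves at 0.53, 0.49 and 0.51. Control 1, Aβ42 1 and Aβ40 2 were at 0.36, 0.31 and 0.49. Whether libraries of different numbers share a preparation was not tested, and the replicate block follows the numbers of the labels. The replicate block left 12 members called in astrocytes with Aβ42 and 10 with Aβ40, 25 in microglia with Aβ42, and 28 between the control cultures, and it ended the calls of Mapt and Rin3 in astrocytes with Aβ40 (adjusted p = 0.0579 and 0.0776), Sorl1 in microglia with Aβ42 (0.0869), Celf1 between the fibrils (0.0811) and Ace, Ank3 and Celf1 in the Aβ42 interaction (0.0589, 0.0581 and 0.0689). The detection floor of the shallowest library, 1.52 scaled CPM, limits Slc24a4, whose microglial levels were 1.75 to 4.19.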
